A study of Mus musculus with 8 samples.

Results

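The 7 genes described here carry iodide into and across the thyroid follicular cell, or encode channel subunits that work with those carriers. They are Slc5a5, Slc26a4, Slc26a7, Slc5a8, Ano1, Kcnq1 and Kcne2, and were chosen by symbol from the table of gene expression values, which lists them in capitals (SLC5A5, SLC26A4, SLC26A7, SLC5A8, ANO1, KCNQ1 and KCNE2). All 7 were found among the 16119 genes of the table and all passed, Kcne2 through the lungs alone, the filter on low values, which kept the 14703 genes that reached 10 normalized counts in 2 or more libraries.

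RNA was sequenced from 8 mouse libraries in 4 groups of 2: early-passage and late-passage thyroid follicular cell organoids (TFCOs) of the lines mThy14 and mThy16, thyroid tissue 1 and 2, and lung tissue 1 and 2. The source animals were wild type C57BL/6, and ages are not given in the sources used here. TFCOs are three-dimensional cultures of follicular epithelium grown in basement membrane extract with forskolin, which raises cAMP, R-spondin, the TGF-beta inhibitor A83-01, EGF and FGF10. They come from 2 lines, each present at both passages, whereas the tissues are whole pieces that also hold stroma, vessels and other cells, so lower cell content and less RNA per cell cannot be told apart.

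In the follicular cell, iodide enters from the blood side through the sodium-iodide symporter NIS, which is driven by the sodium gradient that the sodium pump builds. It leaves on the opposite, apical side into the follicle lumen, where it is oxidized and coupled to thyroglobulin. Potassium channels on the basolateral side support the uptake, and thyrotropin raises it through cAMP.

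Slc5a5 encodes NIS and lies on chr8:70882889-70892757, minus strand, in the GRCm38 annotation. Slc26a4 (chr12:31519827-31559969, minus strand) encodes pendrin, an anion exchanger of the apical membrane that is also used in the inner ear and kidney. Slc26a7 (chr4:14502430-14621805, minus strand) encodes a further anion transporter needed for thyroid hormone synthesis. Slc5a8 (chr10:88885992-88929515, plus strand) encodes a sodium-coupled carrier of short-chain monocarboxylates, first described as an apical iodide transporter. Ano1 (chr7:144588549-144751974, minus strand) encodes a calcium-activated chloride channel that also conducts iodide. Kcnq1 (chr7:143106362-143427042, plus strand) encodes the pore of a potassium channel, and Kcne2 (chr16:92292389-92298129, plus strand) encodes its accessory subunit, which lets the channel stay open. Ano1 and Kcnq1 overlap antisense genes in the annotation, among them Kcnq1ot1 for Kcnq1. Whether reads were counted by strand is not given in the sources used here. On the opposite strand, Ano1 shared 0% of its 50-base stretches of exon with another gene. Kcnq1 shared 1.94%, with Kcnq1ot1, so its values may include some reads of that gene. None of the 7 genes shared a 50-base stretch of exon with another gene on the same strand.

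RefSeq start-site windows of 300 bases on GRCm38.p6, with 250 bases before and 50 after the start, were available for 5 of the 7 genes. Those of Slc5a5, Slc26a4 and Kcne2 are shown because NIS and pendrin differed in opposite directions between TFCOs and thyroid tissue, and because Kcne2 was listed at 0 outside the lung. The windows are chr8:70892708-70893007 (minus strand) for Slc5a5, chr12:31559935-31560234 (minus strand) for Slc26a4 and chr16:92292139-92292438 (plus strand) for Kcne2. Capitals mark matches, on either strand, to 3 motifs: CTCAAG is the core bound by NKX2-1, TGACG is a core of CREB sites, and TATAAA is the TATA box.
Slc5a5: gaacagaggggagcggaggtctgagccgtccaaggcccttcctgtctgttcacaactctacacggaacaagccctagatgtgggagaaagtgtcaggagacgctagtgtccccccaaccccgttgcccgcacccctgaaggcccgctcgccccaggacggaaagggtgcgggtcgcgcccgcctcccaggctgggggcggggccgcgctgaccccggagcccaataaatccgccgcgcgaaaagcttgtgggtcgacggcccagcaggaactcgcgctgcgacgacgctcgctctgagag
Slc26a4: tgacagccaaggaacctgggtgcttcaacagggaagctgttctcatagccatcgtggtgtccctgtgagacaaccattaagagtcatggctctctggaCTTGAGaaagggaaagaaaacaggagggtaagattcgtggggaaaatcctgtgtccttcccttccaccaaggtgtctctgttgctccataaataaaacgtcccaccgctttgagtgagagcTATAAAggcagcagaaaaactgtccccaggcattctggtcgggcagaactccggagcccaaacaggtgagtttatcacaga
Kcne2: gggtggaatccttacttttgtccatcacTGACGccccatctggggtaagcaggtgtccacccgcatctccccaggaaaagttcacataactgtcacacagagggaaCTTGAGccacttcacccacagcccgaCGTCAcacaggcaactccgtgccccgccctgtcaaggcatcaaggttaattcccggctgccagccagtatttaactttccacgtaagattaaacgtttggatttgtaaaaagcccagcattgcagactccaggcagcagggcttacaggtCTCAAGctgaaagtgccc
The Slc5a5 window held none of these letter runs and had a GC content of 67.0%, against a median of 52.7% over all windows. The Slc26a4 window held CTCAAG on the reverse strand at -152 and TATAAA at -31, counted from the start site. The Kcne2 window, at 53.0% GC, held CTCAAG at -144 on the reverse strand and at 33 bases past the start, and TGACG at -222 and, on the reverse strand, at -118. The windows of Slc5a8 and Ano1 and a further window of Kcne2 held no match. Of 32851 mouse windows of this length, 15.9% held CTCAAG, 20.8% held TGACG and 13.6% held TATAAA, and a match describes these letters only.

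The depth ranged from 9755081 to 16904865 reads on genes. The follicular markers Tg, Pax8, Nkx2-1 and Tshr were present in every TFCO and thyroid library, and Pax8 was at 0 in both lungs. The libraries fell into 2 sets that did not follow the groups: 16 genes were at 0 in the 4 TFCO libraries and thyroid tissue 1 and at 50 or more in thyroid tissue 2 and both lungs, and 44 genes showed the reverse. The next most marked of 127 ways to split the libraries gave 4 genes. Thyroid tissue 1 therefore shares its set with the TFCOs and thyroid tissue 2 with the lungs, and results that use thyroid tissue are also given with 1 thyroid library at a time. For TFCOs against lung, set and tissue cannot be told apart.

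Slc5a5 was higher in thyroid than in lung tissue and was low in most TFCO libraries. Thyroid tissue 1 held 333 normalized counts and thyroid tissue 2 held 2763. The early TFCOs held 292 in mThy14 and 45.6 in mThy16, the late TFCOs 29.1 and 24.6, and the lungs 5.86 and 8.76. Early mThy14 thus lay close to thyroid tissue 1, while the other 3 TFCO libraries lay between thyroid and lung. The thyroid tissues themselves differed 8.29-fold, a gap that falls together with the set of the libraries.

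Slc26a4 showed another order, with all TFCO libraries above all tissues. Normalized counts were 191 and 914 in early mThy14 and mThy16, and 269 and 892 in late mThy14 and mThy16. The thyroid tissues held 12.0 and 9.22, and the lungs 88.0 and 6.07. Pendrin RNA was low in both thyroid libraries, one from each set, and lung tissue 1 stood 14.5-fold above lung tissue 2.

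Slc26a7 had the widest range of the 6 genes that were above 0 in every library. Thyroid tissue held 8331 and 17069 normalized counts. TFCOs held 997 and 1216 in mThy14, early and late, and 249 and 257 in mThy16. The lungs held 0.838 and 1.35, which rest on 1 and 2 reads. All 3 groups of tissue or culture were thus apart, and the lines differed by more than the passages did.

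Slc5a8 was nearly the same in the thyroid tissues, at 1344 and 1349 normalized counts, and in the lungs, at 15.9 and 16.2. TFCOs of mThy16 held 177 at early and 293 at late passage. Those of mThy14 held 16.9 and 7.29, near and below the level of the lungs. Every TFCO library lay below both thyroid tissues.

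Ano1 was high in mThy16, at 3704 and 3994 normalized counts at early and late passage, and lower in mThy14, at 429 and 1307. The thyroid tissues held 311 and 420 and the lungs 2136 and 1687. Every TFCO library lay above both thyroid tissues, early mThy14 only just, and the lungs lay within the range of the TFCOs.

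Kcnq1 was highest in the lungs. Normalized counts were 32.3 and 262 in early mThy14 and mThy16, 103 and 305 in late mThy14 and mThy16, 142 and 180 in thyroid tissue, and 336 and 439 in lung tissue. The thyroid tissues lay between the TFCO lines.

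For Kcne2 the table gives 0 in the 4 TFCO libraries and in both thyroid tissues, and 352 and 205 normalized counts in the lungs. Of 9701 genes at 100 or more in both lungs, it was the only 1 listed at 0 in all 6 other libraries. A further 15 genes with 100 or more in both lungs were also at 0 in the TFCOs and thyroid tissue 1, so a 0 may be a gene not counted there, and no fold is given. Of these, 13 held 100 or more in thyroid tissue 2, which shares its set with the lungs, whereas Kcne2 was at 0 there. Kcne2 passed the filter only through the lungs, where it had to be higher, so no test is given for it.

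**Figure D1:**
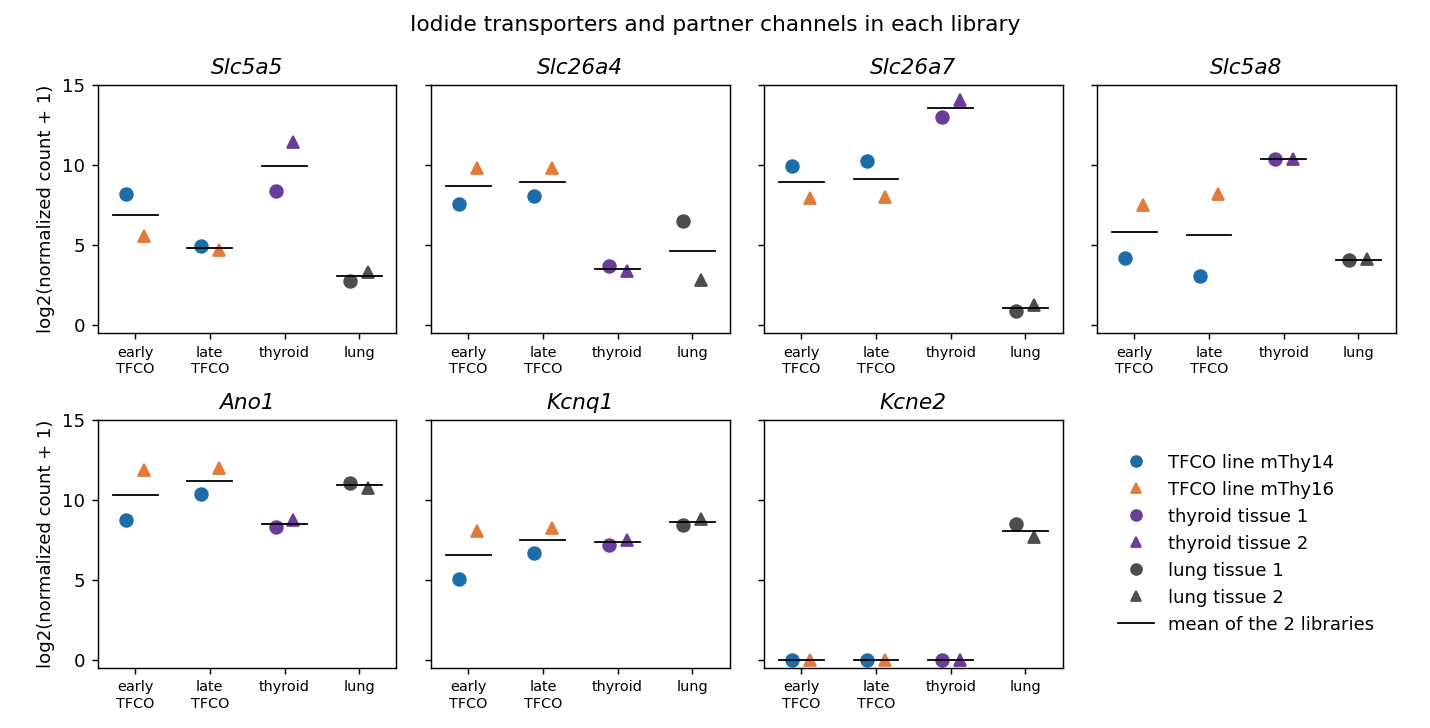
Normalized counts of the 7 genes in each of the 8 libraries, as log2(normalized count + 1), with a line at the mean of the 2 libraries of a group. Slc26a4 lay above both tissues in every TFCO library, Slc5a8 and Slc26a7 lay below thyroid tissue in every TFCO library, and Kcne2 was listed at 0 outside the lung.

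Levels of different genes can be set side by side only per length, here as normalized counts per kb of annotated exon. On this scale Slc26a7 was the most abundant of the 7 in both thyroid tissues, at 1583 and 3243 per kb. Slc5a5 followed at 944 per kb in thyroid tissue 2, but in thyroid tissue 1, at 114 per kb, it lay below Slc5a8 at 252. In the TFCOs Ano1 was the most abundant in mThy16, at 761 and 821 per kb, and in late mThy14, at 269 per kb, whereas Slc26a7 was in early mThy14, at 189 per kb. Slc26a4 reached 297 and 290 per kb in mThy16, against 3.89 and 3.00 in thyroid tissue. In the lungs Ano1 was again highest, at 439 and 347 per kb, followed by Kcne2 at 199 and 116. The sources name both a full-length and a 3' library protocol, and scaling by length does not apply to the latter.

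The comparison of TFCOs with thyroid tissue asks how far cultured follicular cells keep the levels of the organ. Slc26a7 was lower in TFCOs and was the only member that passed the test. Slc5a5 and Slc5a8 also lay below both thyroid tissues in every TFCO library, and Slc26a4 and Ano1 lay above them in every TFCO library, without passing it. The log2 fold change of Slc26a7 was -4.50 (SE 0.76, 2 lines against 2 tissues), a 22.6-fold lower level, with an adjusted p of 0.0259 by limma with Benjamini-Hochberg adjustment over all 14703 genes. A gene is called changed where this p is under 0.05, and 3.65% of all genes were called in this comparison, against 1 of the 7 members. Groups that did not overlap were found for 5 of the 7 members and for 34.5% of all genes.

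The other differences from thyroid tissue were large but uncertain. The log2 fold change of Slc26a4 was 5.30 (SE 1.31, adjusted p = 0.0845). That of Slc5a8 was -4.67 (SE 1.26, adjusted p = 0.103). That of Slc5a5 was -4.08 (SE 1.10, adjusted p = 0.105). Pendrin was thus 39.4-fold higher and NIS 16.9-fold lower on the log2 mean, in opposite directions, with neither passing the threshold. Ano1 gave 2.23 (SE 0.71, adjusted p = 0.16) and Kcnq1 -0.31 (SE 0.76, adjusted p = 0.831).

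Within the set that thyroid tissue 1 shares with the TFCOs, the log2 fold changes were -3.98 for Slc26a7, with an adjusted p of 0.133, 5.13 for Slc26a4, -4.67 for Slc5a8 and 2.44 for Ano1. These differ little from the values with both tissues. Against thyroid tissue 2 alone they were -5.01 for Slc26a7 (adjusted p = 0.0218), 5.47 for Slc26a4 (0.0681), -4.68 for Slc5a8 (0.101) and 2.01 for Ano1 (0.172). Kcnq1 gave -0.14 and -0.48 against thyroid tissue 1 and 2. Slc5a5 moved to -2.55 (adjusted p = 0.225) against thyroid tissue 1 alone and to -5.60 (adjusted p = 0.0124) against thyroid tissue 2 alone, so its size and its call changed with the thyroid library. With 1 thyroid library the other groups supply the estimate of its spread, and the fit against thyroid tissue 2 alone called 4085 genes in place of 536. The call of Slc26a7 was also lost without lung tissue 1 (adjusted p = 0.0626) or lung tissue 2 (0.0646), which enter only through the estimate of the spread. Ano1 passed the threshold without early mThy14, with a log2 fold change of 2.63 (adjusted p = 0.0481).

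**Figure D2:**
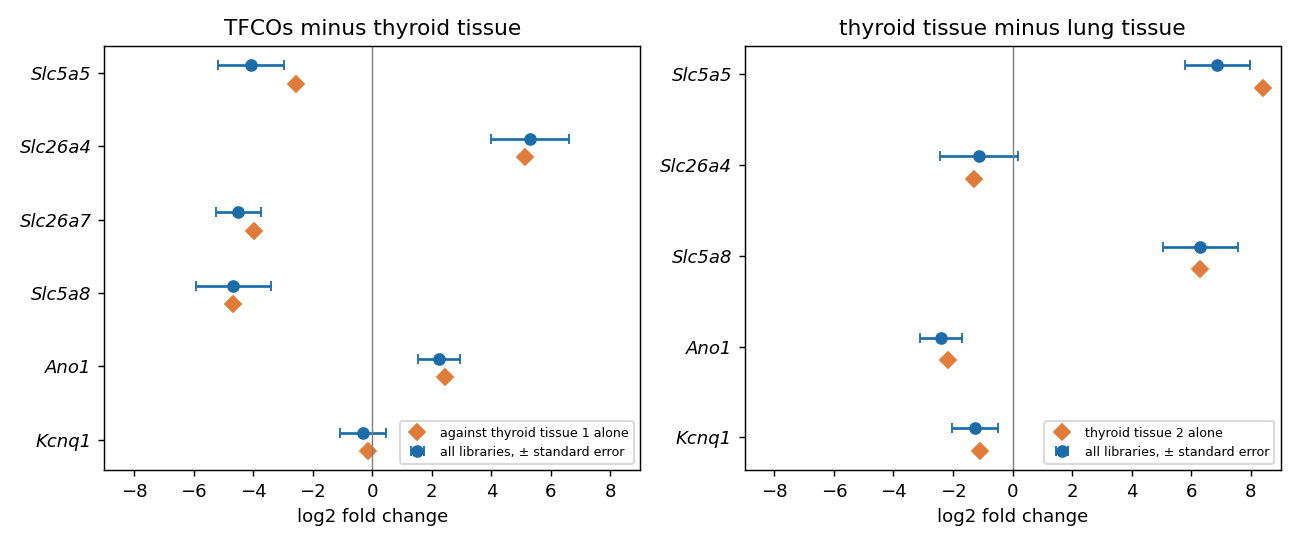
Log2 fold changes of TFCOs against thyroid tissue (left) and thyroid against lung tissue (right); circles with bars are the fit to all libraries with its standard error, and diamonds the same contrast with the 1 thyroid library that shares its set with the other group. Slc26a7 is left out on the right because its lung values rest on 1 and 2 reads, and Kcne2 because it was listed at 0; Slc5a5 is the gene whose diamonds lie farthest from its circles.

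Markers of other cells also differed between thyroid tissue and TFCOs. In both thyroid tissues 4 of 4 fibroblast, 5 of 5 skeletal muscle, 4 of 4 endothelial, 3 of 3 parathyroid, 3 of 4 C cell, 2 of 4 leukocyte, 1 of 4 smooth muscle and 1 of 3 adipocyte markers lay above every TFCO library, as did 17.3% of all genes. The summed fibroblast markers held 20008 to 21352 normalized counts in thyroid tissue and 76.0 to 223 in TFCOs, and the summed C cell markers 47544 to 74474 against 41.6 to 101. Their part in the differences of the 7 genes was not tested.

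Thyroid against lung tissue shows which of the genes mark the thyroid relative to an unrelated organ. Slc5a5, Slc26a7 and Slc5a8 were higher in thyroid. Leaving Kcne2 aside, 3 of 6 members were called higher and 0 lower, where 2.89% of all genes were called higher and 3.16% lower. The log2 fold change was 6.88 for Slc5a5 (SE 1.10, 117-fold, adjusted p = 0.0189) and 6.30 for Slc5a8 (SE 1.26, 79.1-fold, adjusted p = 0.0342). For Slc26a7 the adjusted p was 0.000946. Thyroid tissue 2 held 15234 times the Slc26a7 level of the lungs, with a 95% counting interval of 5213 to 73869 that reflects the 3 lung reads and covers counting error only.

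Slc26a4, Ano1 and Kcnq1 did not pass in this comparison. The log2 fold changes, thyroid minus lung, were -1.12 for Slc26a4 (SE 1.31, adjusted p = 0.626), -2.39 for Ano1 (SE 0.71, adjusted p = 0.101) and -1.26 for Kcnq1 (SE 0.76, adjusted p = 0.366). The direction of Slc26a4 followed lung tissue 1, and without it the value was 0.70 (adjusted p = 0.856). Ano1 and Kcnq1 lay below both lungs in both thyroid tissues, as did 27.5% of all genes.

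With thyroid tissue 2 alone, which shares its set with the lungs, Slc5a5 gave a log2 fold change of 8.40 (adjusted p = 0.0182) and Slc5a8 of 6.31 (adjusted p = 0.112). With thyroid tissue 1 alone, Slc5a5 gave 5.35 (adjusted p = 0.0135) and Slc5a8 gave 6.30 (adjusted p = 0.0492). Slc5a5 was called with either library but its size followed the library, whereas Slc5a8 kept its size and lost its call with thyroid tissue 2 alone. Slc26a7 was called with either, with adjusted p of 0.00611 for thyroid tissue 1 and 0.0145 for thyroid tissue 2. Slc26a4, Ano1 and Kcnq1 gave -0.95, -2.60 and -1.43 with thyroid tissue 1 and -1.29, -2.17 and -1.09 with thyroid tissue 2, none of them called. Without lung tissue 1, Slc5a5 gave an adjusted p of 0.155 and Slc5a8 of 0.209, and without lung tissue 2 they gave 0.142 and 0.222. Slc26a7 was then the only member called, with adjusted p of 0.0105 and 0.00914. Slc5a8 also missed the threshold without early mThy14 (adjusted p = 0.052).

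TFCOs against lung, which share their libraries with the comparisons above, gave 1 called member of the 6 other than Kcne2. Slc26a7 was higher in TFCOs, with an adjusted p of 0.00151, and 9.83% of all genes were called higher here. The log2 fold change was 4.18 for Slc26a4 (SE 1.31, adjusted p = 0.0572) and 2.80 for Slc5a5 (SE 1.10, adjusted p = 0.0945), and every TFCO library lay above both lungs for each, as for Slc26a7 and 34.4% of all genes. Slc5a8 gave 1.63 (adjusted p = 0.339), with mThy16 above the lungs by its values and late mThy14 below them. Ano1 gave -0.16 (adjusted p = 0.874) and Kcnq1 -1.57 (adjusted p = 0.15). Without lung tissue 1 or 2, Slc26a7 was still called, with adjusted p of 0.0193 and 0.0214. The value of Slc26a4 depended on the lung library, at 6.00 without lung tissue 1 (adjusted p = 0.0836) and 2.35 without lung tissue 2 (adjusted p = 0.264). Slc5a5 passed without thyroid tissue 1 (adjusted p = 0.0243) or thyroid tissue 2 (0.0252), again through the estimate of the spread.

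Late against early passage asks whether the levels hold in culture. None of the 7 members passed the test, nor did any of the 14703 genes (0%), of which 1.13%, or 166 genes, had an unadjusted p under 0.05. Slc5a5 was the only member whose passages did not overlap, with both late libraries lower, which 12.4% of all genes showed. Its late libraries held 10.0-fold less in mThy14 and 1.85-fold less in mThy16, with a log2 fold change of -2.07 (SE 1.19, adjusted p = 1) by limma with Benjamini-Hochberg adjustment. This fit did not pair the passages by line, and the tissues also entered its estimate of the spread. With the TFCOs paired by line, limma gave Slc5a5 the same -2.07, with an adjusted p of 0.896. Unpaired, the log2 fold change of Slc5a5 was -0.75 without early mThy14 and -3.40 without early mThy16. In mThy16, Slc26a4, Slc26a7, Ano1 and Kcnq1 had late-to-early ratios of 0.976, 1.03, 1.08 and 1.16. In mThy14 the same ratios were 1.40, 1.22, 3.05 and 3.19, so Ano1 and Kcnq1 differed more between passages in that line. With 1 library per line and passage this contrast was not tested.

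In Slc26a4, Slc26a7 and Slc5a8 the lines differed more than the passages did. In mThy16, Slc26a4 was 4.78-fold and 3.32-fold above mThy14 at early and late passage, Slc5a8 10.5-fold and 40.2-fold, Ano1 8.64-fold and 3.06-fold, and Kcnq1 8.12-fold and 2.96-fold. Slc26a7 lay the other way, with mThy14 4.01-fold and 4.73-fold above mThy16, and so did Slc5a5, at 6.42-fold and 1.19-fold. Both libraries of mThy16 lay above both of mThy14 for 4 of the 7 members and for 26.4% of all genes. The reverse held for Slc26a7 and for 29.1% of all genes. For Slc5a5 it held within each passage, but early mThy16 lay above late mThy14.

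**Figure D3:**
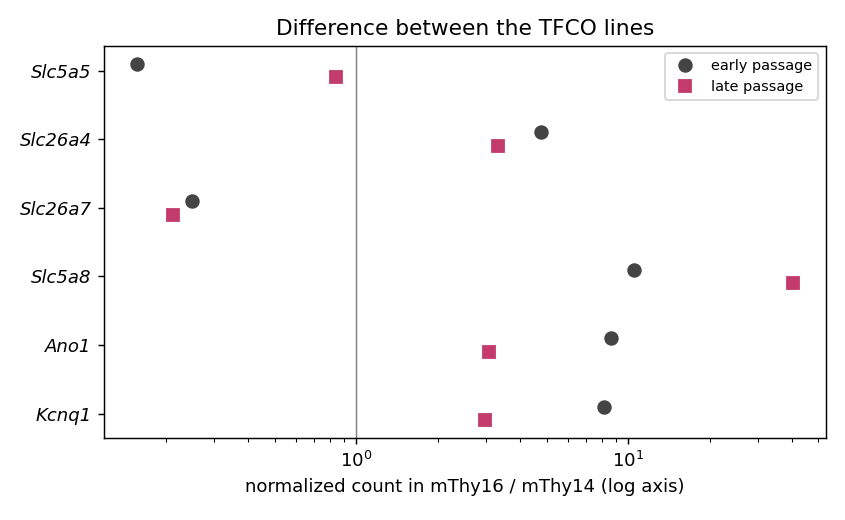
Normalized count in mThy16 divided by that in mThy14, on a log axis, at early (circles) and late passage (squares) for the 6 members above 0 in TFCOs. Slc26a4, Slc5a8, Ano1 and Kcnq1 lay above 1 and Slc5a5 and Slc26a7 below it at both passages, with late Slc5a5 near 1.

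Markers of ciliated cells differed between the lines in the same direction as Ano1. All 3 markers, Foxj1, Ccdc39 and Dnah9, were higher in both libraries of mThy16 than in both of mThy14, and none was at 0. The same order held for 26.4% of all genes, 3 of 4 smooth muscle markers and 2 of 5 skeletal muscle markers. The sum of the 3 ciliated cell markers was 64.7 and 474 normalized counts in mThy14 at early and late passage, and 6253 and 6136 in mThy16. Foxj1, a transcription factor of motile cilia, made up nearly all of it outside early mThy14. It held 35.1, 442, 6122 and 6016 in early mThy14, late mThy14, early mThy16 and late mThy16. Ccdc39 held 75.3 and 85.0 in early and late mThy16, against 54.4 and 36.0 in thyroid tissue 1 and 2. Dnah9 held 55.5 and 34.7 against 66.4 and 29.5. In mThy16, Dnah9 thus lay within the range of thyroid tissue. Ccdc39 lay above both thyroid tissues, by far less than Foxj1, which held 30.5 and 22.1 there. The part of the 3 markers in the values of the 7 genes was not tested. The summed follicular markers were lower in mThy16, at 22869 and 18861 against 154540 and 92635. Tg made up most of the sum in mThy14, at 126441 and 64646, and held 12225 and 9532 in mThy16. Pax8 differed less, at 4259 and 3925 in mThy16 against 8273 and 7560 in mThy14.

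Of all genes tested, Foxj1 was also the most like Ano1 over the 8 libraries, with a Pearson r of 0.992 on the log2 scale. Next came Ttc9 (r = 0.99) and Slc45a3 (r = 0.987). The points share lines and tissues and are not independent, and r is given as a description.

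**Figure D4:**
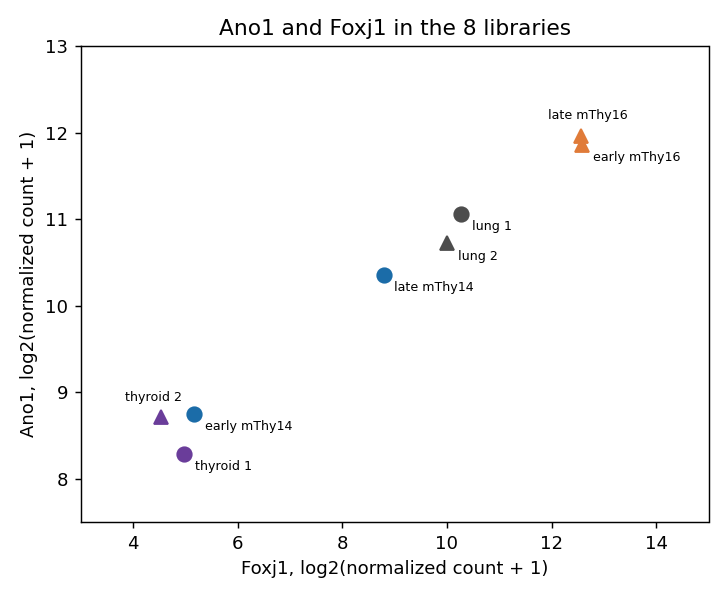
Ano1 against Foxj1 in the 8 libraries, each as log2(normalized count + 1). The thyroid tissues and early mThy14 lie lowest, late mThy14 and the lungs between, and both libraries of mThy16 highest.

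The genes most like the other members differed from one member to the next. They were Letmd1 (r = 0.972), Pabpn1l (0.971) and Tunar (0.968) for Slc5a5, and Rap2b (0.982), Smyd3 (0.978) and Grb7 (0.974) for Slc26a4. They were Cand2 (0.993), Igfn1 (0.992) and Ubash3b (0.989) for Slc26a7, and Rasl10a (0.969), Ppa1 (0.969) and Ptn (0.968) for Slc5a8. For Kcnq1 they were Cpne8 (0.985), Caps2 (0.983) and Sema3c (0.973). For Kcne2 they were the lung gene Cldn18 (0.996) and 2 low-count features, Ighv3-6 (1.0) and Mir1199 (0.995). Kcne2 and both features were listed at 0 outside the lung, where Cldn18 held at most 7.83 normalized counts. A high r was therefore bound to follow for them. No member appeared among the 3 nearest genes of another member.

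Genes that act on the transported iodide had a lower median in TFCOs than in thyroid tissue, without a call. Of 6 iodination genes (Tg, Duox1, Duox2, Duoxa1, Duoxa2 and Iyd), 0 were called between TFCOs and thyroid tissue, with a median log2 fold change of -3.11 against 0.05 over all genes. Tg, the protein on which hormone is made, gave -5.87 (SE 1.31, adjusted p = 0.062), and Duox2, a source of the hydrogen peroxide that the reaction uses, -2.60 (SE 0.63, adjusted p = 0.0794). Duoxa1 passed the filter only through thyroid tissue, at 71.8 and 75.6 normalized counts, so its call against lung is not used. The 5 others were called higher in thyroid than in lung, where 2.89% of all genes were. The median of all 6, Duoxa1 included, was 6.85 against 0.03. The same 5 were called higher in TFCOs than in lung, where 9.83% of all genes were.

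The transcription factors and receptor of the lineage had no call against thyroid tissue either. Of Pax8, Nkx2-1, Foxe1, Hhex, Tshr, Glis3 and Foxi1, 0 of 7 were called between TFCOs and thyroid tissue, with a median log2 fold change of 0.61. Pax8 gave -0.28 (SE 0.47, adjusted p = 0.755) and Tshr, the thyrotropin receptor, 1.74 (SE 0.86, adjusted p = 0.327), with every TFCO library above both thyroid tissues. Foxi1 held 7.03 to 29.7 normalized counts in the TFCOs and was listed at 0 in all 4 tissues. Against lung, 5 of the 6 others were called higher in TFCOs, where 9.83% of all genes were, and 3 of 6 in thyroid, where 2.89% were.

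Calls among relatives of the members are set beside the share of all genes called in either direction. This share was 3.65% between TFCOs and thyroid tissue, 6.05% between thyroid and lung, and 23.4% between TFCOs and lung. Of 8 tested genes of the SLC5 family beside the members, 0 were called between TFCOs and thyroid tissue. Slc5a9, a sodium-sugar transporter, was higher than in lung both in thyroid, with a log2 fold change of 4.87 (SE 0.79, adjusted p = 0.0198), and in TFCOs, at 7.07 (SE 0.79, adjusted p = 0.00275). It held 623 to 706 normalized counts in the TFCOs, 83.8 and 248 in thyroid, and 2.51 and 6.07 in lung. Slc5a2 held 10.9 to 37.9 normalized counts in the TFCOs and 0 and 0.674 in lung. Slc5a12 held 18.4 and 107 in lung and 0 in both thyroid tissues. Slc5a2 passed the filter only through the TFCOs and Slc5a12 only through the lungs, so their calls against lung are not used. Of 9 tested SLC26 relatives, Slc26a9, an airway anion channel, and Slc26a2, a sulfate transporter, were lower than in lung in both comparisons. Slc26a5 held 8.33 to 54.8 normalized counts in the TFCOs and 0.838 and 0 in lung. It passed the filter only through the TFCOs, so its call against lung is not used.

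Among 9 tested anoctamins other than Ano1, Ano5 was called higher in thyroid than in lung and Ano2 higher in TFCOs than in lung. Among 6 tested relatives of Kcnq1 and Kcne2, Kcne4 was called lower in TFCOs than in lung, and 0 were called between thyroid and lung. Neither family had a call between TFCOs and thyroid tissue. Kcne3, another subunit that holds Kcnq1 open, was at 40.8 and 0 normalized counts in mThy14, early and late, at 321 and 492 in mThy16, and at 5.44 and 71.9 in thyroid tissue; it was named after its values were seen. The order of the lines for Kcne3 was that of Kcnq1, and 26.4% of all genes showed this order. Not all of the 6 relatives did, and a link between Kcne3 and Kcnq1 was not tested.

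The sodium pump powers NIS. Of 13 tested pump subunits and FXYD regulators, 0 were called between TFCOs and thyroid tissue and 0 between thyroid and lung. Against lung, the beta subunit Atp1b1 was higher in TFCOs (log2 fold change 3.04, SE 0.78, adjusted p = 0.0359). Fxyd5, Fxyd6 and Fxyd3 were lower, and 23.4% of all genes were called in either direction. Of these 3, thyroid tissue 1, in the set of the TFCOs, held 69.7, 20.7 and 3.27 normalized counts. Thyroid tissue 2, in the set of the lungs, held 368, 228 and 35.0. Atp1b1 held 26358 to 90285 normalized counts in the TFCOs, 38200 and 19708 in thyroid, and 6630 and 5185 in lung. Of 7 other anion channels and transporters tested, 0 were called in any of the 4 comparisons.

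Of 3 proteins known to bind NIS or act on its trafficking (Pttg1ip, Arf4 and Vcp), Pttg1ip was called lower in TFCOs than in lung. Its values followed the sets of the libraries, at 117 to 247 normalized counts in the TFCOs, 156 in thyroid tissue 1, 3111 in thyroid tissue 2, and 3921 and 3335 in the lungs. Thyroid tissue 1 lay in the range of the TFCOs and thyroid tissue 2 near the lungs. Within thyroid tissue the level of this gene thus followed the set. Whether tissue had a part in its call against lung was not tested.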

How the data were processed

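Bulk RNA of 8 mouse libraries was measured. The authors deposited 1 table of normalized counts, a signal per gene scaled by library. The submitters' processing notes name BWA 0.6.2-r126 and the builds mm10 and hg38. The methods describe stranded poly(A) libraries and the labels an adapted CEL-Seq protocol. All values above 0 were whole multiples of 1 step per library, with a tolerance of 0.01 reads for low counts. The tolerance grew with the count, so the highest counts could not fail. Read counts divided by 1 factor per library have this form, and the steps gave the depth. Columns matched the sample titles.

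Values were analysed as log2(normalized count + 1) in R 4.3.3 by limma 3.58.1. The fit used a mean-variance trend, and p-values were adjusted by Benjamini-Hochberg over the 14703 genes that reached 10 in 2 or more libraries. Fold changes are on that scale and understate those of low genes. Passages were compared in 1 fit of 8 libraries; elsewhere the passages of a line were averaged. Nothing says whether the tissues came from separate animals, so p-values measure the spread between these libraries. Early and late TFCOs of a line come from the same line, and their deviations from the group means correlated at 0.477 over genes.

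Symbols of 15883 genes matched GENCODE M21 and 236 did not. Some genes of the lists are not reported here. The members and gene lists were chosen with earlier results of these data known. Named were the 7 members, at most 3 called genes per list and comparison, any gene of the iodination and lineage lists, and the 3 genes with the highest r per member. Alternatives changed the pseudocount, filter, scaling, trend, averaging, pairing and libraries. The fits were tested on simulated data.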

Additional observations from a re-analysis of the deposited data

Results flagged for a closer look

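Slc5a8 and Slc26a4 had late-to-early differences of opposite sign in the TFCO lines. For Slc5a8 the difference on the log2(normalized count + 1) scale was -1.11 in mThy14 and 0.72 in mThy16. For Slc26a4 it was 0.49 in mThy14 and -0.04 in mThy16. Each line has 1 library per passage, so these differences between lines were not tested.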

How the results depend on the processing

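Of the 6 members with fold changes, the log2 fold changes in the 4 comparisons were recomputed under 15 alternatives each. Of these values, 325 kept their direction and their side of the threshold, 14 lost the call, 8 gained it and 13 changed direction. Rescaling moved the median of all genes by up to 0.13 (same total) and 0.27 (quantile) on the log2 scale, both in TFCOs against lung.

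For late against early, no member was called under any alternative, and the number of genes called ranged from 0 to 2 when single libraries were left out. With single libraries left out, which also unbalances the lines, the log2 fold change ranged from -3.40 to -0.75 for Slc5a5, from -0.90 to 1.35 for Slc26a4, from -0.95 to 1.29 for Slc26a7, from -2.77 to 2.38 for Slc5a8, from -0.70 to 2.41 for Ano1 and from -0.56 to 2.42 for Kcnq1.

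For TFCOs against thyroid tissue, 536 genes were called, 1322 with the 4 TFCO libraries as separate samples and 232 by voom on the recovered reads, which was added after seeing the data. Members called were 2 under quantile scaling and with separate TFCO libraries, where Slc26a4 passed (adjusted p = 0.0462 and 0.0154), and 0 without the mean-variance trend. Leaving out single libraries gave 153 to 4085 genes and 0 to 2 members. Kcnq1 turned to 0.21 under quantile scaling, and ranged from -0.72 to 0.10 with single libraries left out, the positive value without early mThy14.

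Counts of members against lung include Kcne2, which passed the filter only through the lungs. For thyroid against lung, leaving out single libraries gave 58 to 4311 genes and 1 to 4 members, against 889 and 4, and voom called 2 members. Slc26a4 ranged from -2.95 without lung tissue 2 to 0.70 without lung tissue 1. For TFCOs against lung, 3435 genes were called, 6625 with separate TFCO libraries, and 248 to 6986 genes and 1 to 3 members when single libraries were left out. Slc26a4 passed under quantile scaling (adjusted p = 0.0345) and with separate TFCO libraries (0.012). Ano1 turned to 0.24 without early mThy14 and 0.01 without lung tissue 1.

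With the replicate block, pairing the TFCOs by line, 0 genes and 0 members were called between passages, as without it. The tissue numbers name no shared animal and their deviations correlated at -0.0726; with a block on them, 167 genes and 2 members were called between thyroid and lung. The planned edgeR test was not run, since the step of early mThy16, at 0.99, was too close to 1 for its whole reads to be accepted as raw counts. The cause of these changes was not tested. Depth limits the value of Slc26a7 in lung, which rests on 1 and 2 reads.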
